A study of Mus musculus with 8 samples.

Results

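The 42 genes described here encode the core machinery that copies DNA: the proteins that mark and license origins, the replicative helicase, the polymerases with their clamp and clamp loader, and the factors that coat single strands and join the finished pieces. They were listed by name for membership in these complexes. A gene was represented by the brightest of its probe sets (the groups of short oligonucleotides that read 1 transcript on the array), by mean over the 8 arrays. All 42 were on the array, out of 18194 genes with a probe set naming 1 gene, and all 42 passed the filter on low values (a log2 level of at least 5 on at least 2 arrays), which 13136 genes passed in all. The 42 genes had 91 probe sets, and 11 of them had a single one.

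Replication of the genome proceeds in ordered steps. The origin recognition complex marks start sites in G1, Cdc6 and Cdt1 load the Mcm2-7 ring onto them, and geminin (Gmnn) blocks Cdt1 after S phase has begun so that an origin fires only once in a cycle. The kinase Cdc7, Mcm10, Cdc45 and the GINS complex turn the loaded ring into an active helicase. Polymerase alpha with primase starts each strand, replication factor C places the Pcna ring around the primed DNA, polymerases epsilon and delta extend the leading and lagging strands, replication protein A covers the exposed single strands, and Fen1 and Lig1 finish the lagging strand. Many of these genes are known E2F targets, switched on in cycling cells. Adult marrow and mid-gestation fetal liver are both blood-forming tissues rich in dividing progenitors.

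The study measured total RNA from adult bone marrow and from fetal liver on Affymetrix mouse genome arrays, with 2 arrays in each of 4 groups. Every array carried RNA pooled from 2 littermates. The wild-type groups were Col18a1+/+ and the knockout groups Col18a1-/-, labelled as lacking the gene for the alpha chain of collagen XVIII, a basement membrane proteoglycan; the strain was given as C57B6/J. Marrow was flushed from femurs and tibias of 3-month-old males, and livers came from embryos at day 14.5 whose sex was listed as undetermined. Both tissues were made into filtered single-cell suspensions. The design text calls the wild-type mice littermates of the knockouts, whereas the growth protocol names separate lines. No cell type was sorted, so the arrays measured whole suspensions. In such bulk RNA, fewer cells of a type and less RNA per cell cannot be told apart.

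Array medians lay between 40.8 and 42.6 intensity units, and the 2 arrays of a group correlated at r = 0.992 to 0.997 over the genes tested. Col18a1 had a mean log2 level of 7.84 in wild-type and 5.81 in knockout marrow, and of 9.12 in wild-type and 8.12 in knockout fetal liver. It was lower in knockout in both tissues but not near 0; the labels do not say whether its probe set reads the deleted part. The tissue labels held against marker genes. The summed intensity of 6 hepatocyte genes was 176 to 232 in marrow and 65009 to 67937 in fetal liver, that of 11 neutrophil genes was 129716 to 135208 in marrow and 9194 to 13478 in fetal liver, and that of 8 B lineage genes was 11542 to 12756 in marrow and 290 to 357 in fetal liver. Wild-type fetal liver stood apart in sex-linked genes: Xist, which is transcribed from the inactive X, was at 11.04 and 11.22 there and between 4.61 and 5.03 on the other 6 arrays, while the Y-linked Eif2s3y was at 3.29 and 3.00 there and between 9.38 and 10.03 elsewhere. Genotype and sex-linked expression therefore cannot be told apart in fetal liver, and tissue and sex-linked expression cannot be told apart between the wild-type groups. Between the knockout groups, 0 of 4 sex-linked genes passed the test (limma; 1 at an unadjusted p under 0.05).

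The promoters of these genes were searched for the letters of 3 motifs known from cell cycle genes. Windows of 300 bases (250 before and 50 after the start; RefSeq, GRCm38.p6) were given for 34 of the 42 genes. The letters searched on both strands were the 4 octamers TTTCCCGC, TTTCGCGC, TTTGCCGC and TTTGGCGC, common forms of the E2F motif. At least 1 octamer lay in the windows of 15 of the 34 genes (44.1%), against 2.60% of the 27025 genes with a window. The NF-Y letters CCAAT lay in the windows of 61.8% of the 34 genes and 41.1% of all genes, and the letters TTTGAA of the CHR motif of mitotic genes in 17.6% and 20.2%. Of the 15 windows with an octamer, 6 are shown by a stretch of 100 bases each, 5′ to 3′ on the strand of the gene, with the octamers in capitals. They were picked to set genes that were higher in fetal liver beside genes that were lower there. Mcm5 at chr8:75109312-75109411 (plus strand), Mcm7 at chr5:138171995-138172094 (minus strand) and Orc3 at chr4:34614943-34615042 (minus strand) were higher in wild-type fetal liver than in wild-type marrow. Mcm6 at chr1:128359731-128359830 (minus strand), Cdc6 at chr11:98907967-98908066 (plus strand) and Rfc3 at chr5:151651209-151651308 (minus strand) were lower.
Mcm5: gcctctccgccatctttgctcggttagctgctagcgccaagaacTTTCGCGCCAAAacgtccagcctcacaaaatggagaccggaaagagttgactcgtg
Mcm7: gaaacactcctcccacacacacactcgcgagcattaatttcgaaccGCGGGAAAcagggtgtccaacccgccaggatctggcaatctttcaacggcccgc
Orc3: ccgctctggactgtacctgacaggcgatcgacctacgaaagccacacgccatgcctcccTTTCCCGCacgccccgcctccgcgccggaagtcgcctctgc
Mcm6: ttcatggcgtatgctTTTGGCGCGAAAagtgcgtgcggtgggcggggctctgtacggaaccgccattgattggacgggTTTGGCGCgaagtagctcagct
Cdc6: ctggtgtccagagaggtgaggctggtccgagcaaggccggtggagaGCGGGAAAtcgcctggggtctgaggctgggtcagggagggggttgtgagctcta
Rfc3: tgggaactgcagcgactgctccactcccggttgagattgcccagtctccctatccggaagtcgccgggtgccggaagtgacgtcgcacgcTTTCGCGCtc
The run of capitals in Mcm5 and the first run in Mcm6 each hold 2 octamers that overlap on opposite strands. Mcm6 holds 3 octamers in all. Of the 15 genes with an octamer, 5 were higher, 3 were lower and 7 did not pass the test in wild-type fetal liver against wild-type marrow. Of the 19 genes with a window and no octamer, 12 were higher, 2 were lower and 5 did not pass it. Over all genes tested in that comparison 39.2% were higher and 26.8% lower. Genes with and without an octamer were not tested against each other. The same 4 octamers were in the windows of 9 of 31 other replication factors (29.0%), 0 of 12 nucleotide supply genes, 7 of 21 regulators of the passage from G1 to S (33.3%) and 1 of 12 mitotic genes (8.33%). A match describes the letters in these windows and does not show a bound site.

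**Figure D1:**
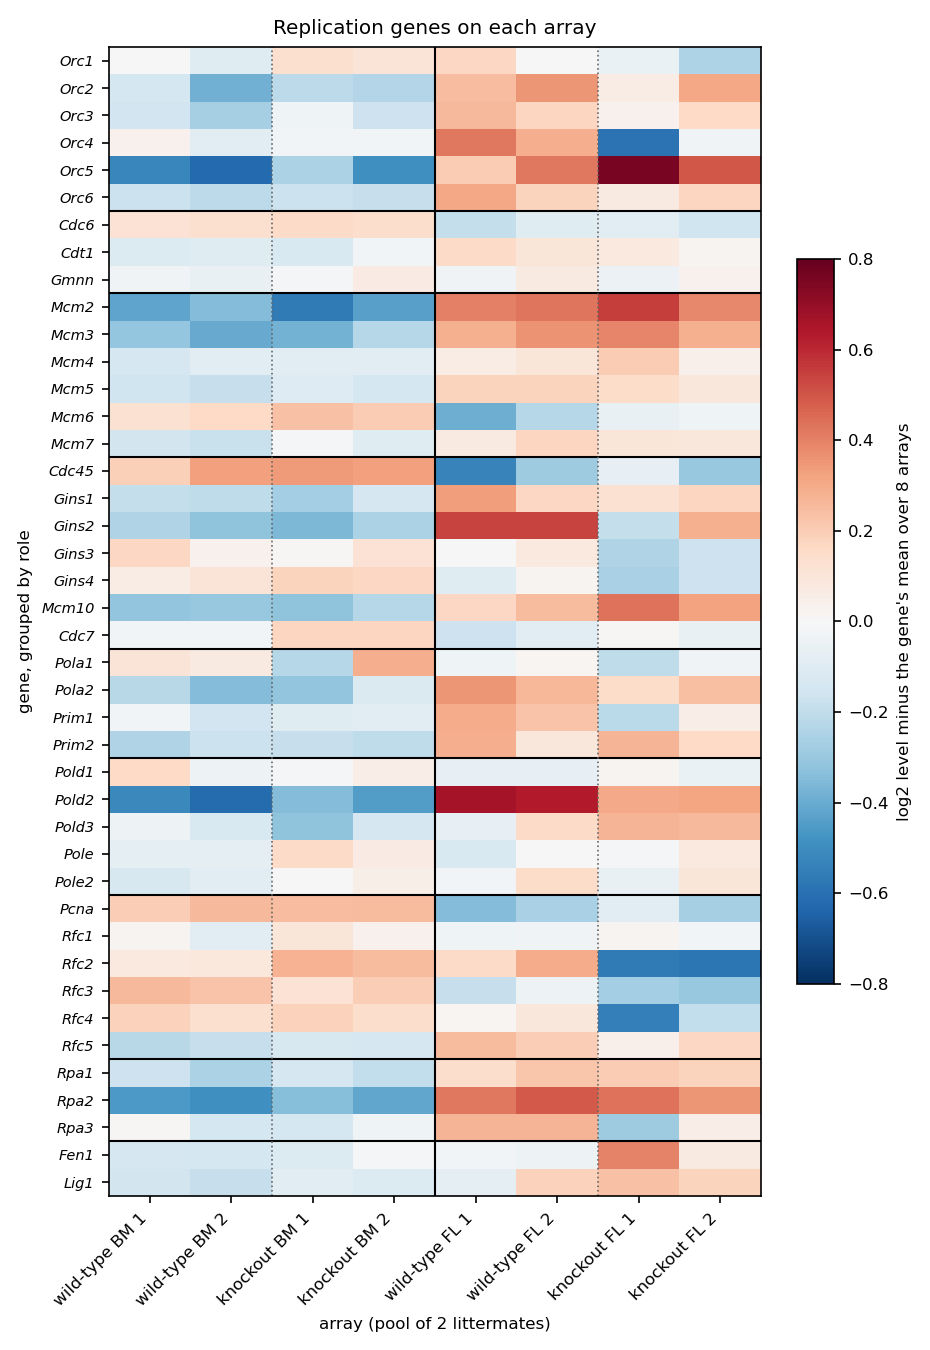
The 42 replication genes on the 8 arrays, grouped by role; the colour is the log2 level minus the gene's mean over the 8 arrays. On the brightest probe sets Orc5, Pold2, Rpa2 and Mcm2 are higher on the fetal liver arrays, Cdc45 and Pcna are lower there, and Rfc2 is low on the 2 knockout fetal liver arrays alone.

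The first comparison asked how fetal liver and adult marrow differ in the replication machinery. Most of the genes that differed were higher in fetal liver, by up to 2.32-fold, but a few central ones, Cdc45, Pcna and Mcm6 among them, were lower. Between the wild-type groups 20 genes were higher and 5 were lower in fetal liver at an adjusted p under 0.05 (limma across all genes, Benjamini-Hochberg). The share called, 25 of 42 or 59.5%, lay below the 65.9% of all 13136 genes called in that comparison (39.2% higher and 26.8% lower). The median difference of the 42 genes was 0.23 on the log2 scale, against 0.14 over all genes. Between the knockout groups 16 genes were higher and 9 lower, again 25 of 42, against 63.8% of all genes (36.6% higher and 27.1% lower), with a median of 0.13 against 0.11. The summed intensity of the 42 genes was 87096 to 90633 in marrow and 94943 to 98377 in fetal liver. The neutrophil, B lineage and hepatocyte sums given above differed between the same arrays, and their part in these differences was not tested.

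On the brightest probe set 14 genes were higher in fetal liver in both genotypes: Orc2, Orc5, Orc6, Mcm2, Mcm3, Mcm5, Gins1, Mcm10, Pola2, Prim2, Pold2, Rfc5, Rpa1 and Rpa2. In both, 5 were lower: Cdc6, Mcm6, Cdc45, Pcna and Rfc3. Another 6 were called higher between the wild-type groups alone (Orc3, Cdt1, Mcm7, Gins2, Prim1 and Rpa3), and Pold3 and Lig1 between the knockout groups alone. Gins3, Gins4, Rfc2 and Rfc4 were called lower between the knockout groups alone, and 11 genes passed neither test on that probe set. Other probe sets of some of the 11 were called, as described further on. Passing in 1 genotype and not in the other is no test of a difference between them; that test is the interaction given further on. Over the 42 genes the differences of the 2 genotypes, which share no array, correlated at r = 0.816, and 35 had the same sign. The correlation, the like signs and the calls shared by both genotypes were not computed over all genes. With 65.9% of all genes called in wild-type and 63.8% in knockout arrays, nothing particular to the 42 is read from them.

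**Figure D2:**
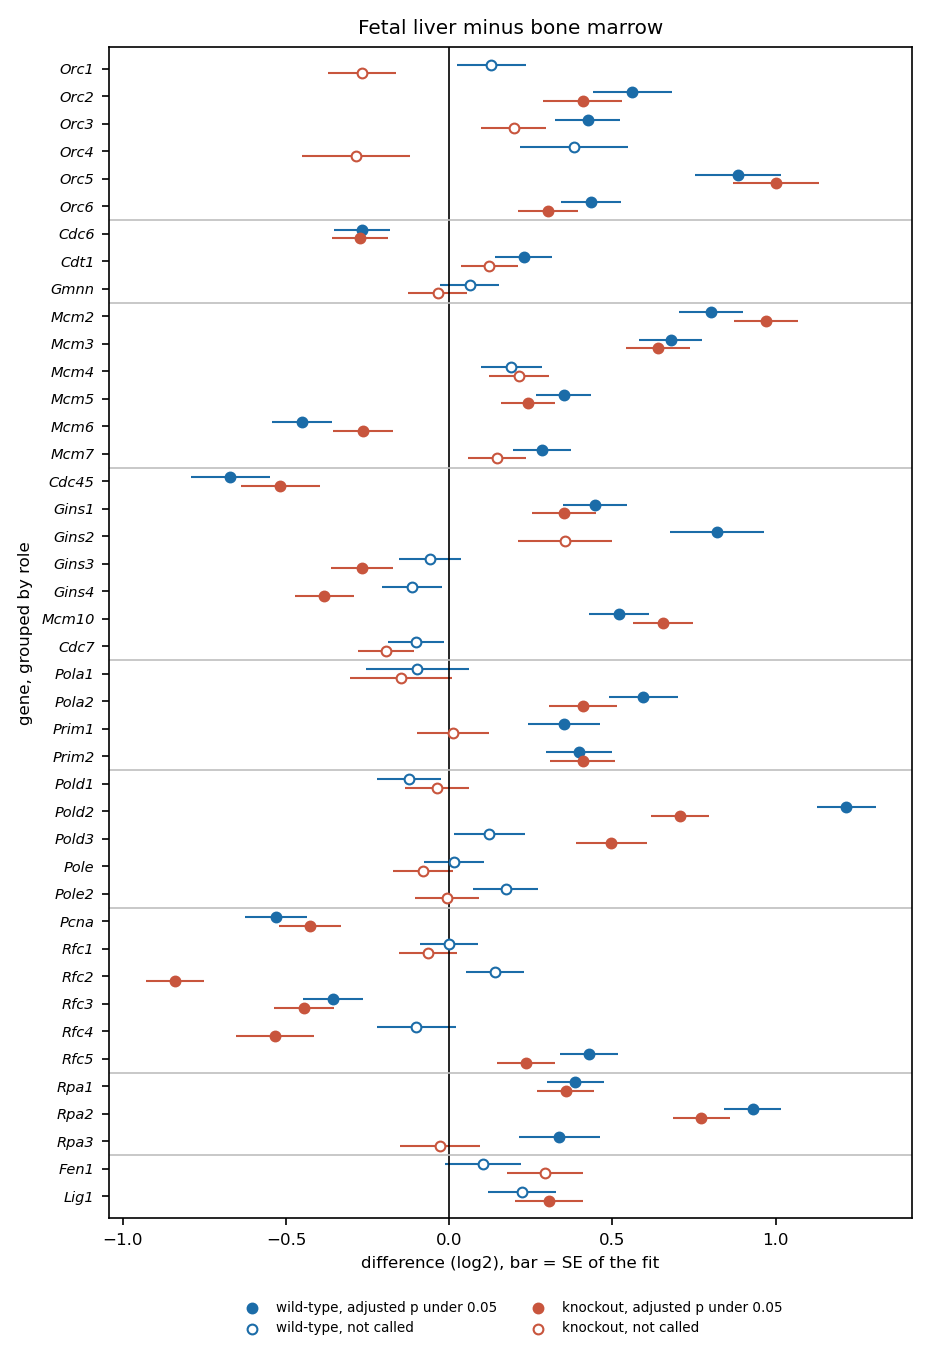
Differences between fetal liver and bone marrow on the log2 scale for each gene, in wild-type and in knockout arrays, with bars of 1 standard error of the fit and called differences marked. Pold2, at 1.22 in wild-type and 0.71 in knockout, and Rpa2 lie far to the right, and Cdc45, Pcna and Rfc3 lie to the left of 0 in both genotypes.

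Among the genes that mark origins, 4 of 6 subunits of the origin recognition complex were higher in wild-type fetal liver and 3 of 6 in knockout fetal liver. Over all genes 39.2% were higher in wild-type and 36.6% in knockout fetal liver, and no shift of the complex is read from so few genes. The counts of subunits rest on the brightest probe sets. That of Orc4 was not called, but its dimmer ones were all called higher in wild-type arrays, at 0.86, 0.57 and 0.99. The last of these was near the filter, at 4.78 and 4.54 in wild-type marrow. Orc5, a subunit of the ATP-binding core of the complex, was at 8.99 and 8.89 in wild-type marrow, 9.26 and 9.02 in knockout marrow, 9.71 and 9.93 in wild-type fetal liver and 10.27 and 10.01 in knockout fetal liver (log2). The tissues did not overlap, and the difference was 0.89 ± 0.13 (SE, n = 2 against 2) in wild-type and 1.001 ± 0.13 in knockout (adjusted p = 0.000352 and 0.000177, limma). Orc2 differed by 0.56 ± 0.12 in wild-type arrays and Orc6 by 0.43 ± 0.09. Orc3 differed by 0.42 ± 0.10 (adjusted p = 0.0049, limma). Orc1, the subunit that comes and goes with the cell cycle, ranged over all arrays only from 8.40 to 8.81 on its brightest probe set and passed in neither genotype. Its second probe set gave -0.35 ± 0.12 in wild-type arrays (adjusted p = 0.0311, limma) and was not called in knockout arrays.

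The loading factors moved differently from one another. Cdc6, the ATPase that recruits the ring, was at 10.96 and 10.97 in wild-type marrow, 11.00 and 10.98 in knockout marrow, 10.65 and 10.74 in wild-type fetal liver and 10.75 and 10.68 in knockout fetal liver, lower in fetal liver by a difference of -0.27 ± 0.09 in both genotypes and without overlap (adjusted p = 0.0231 in wild-type and 0.0214 in knockout, limma). The wild-type call was lost with arrays centred on their medians and without either wild-type marrow array or wild-type fetal liver replicate 1. The knockout call was lost with only those groups' arrays and without either knockout marrow array or knockout fetal liver replicate 2. Cdt1, which loads the ring with Cdc6, was at 12.57 and 12.58 in wild-type marrow and 12.83 and 12.78 in wild-type fetal liver, a difference of 0.23 ± 0.09 near the threshold (adjusted p = 0.0448, limma). That call was lost without any 1 of the 4 marrow or 2 wild-type fetal liver arrays, and the second brightest probe set of Cdt1 gave -0.13. Geminin, the inhibitor of Cdt1, lay between 11.49 and 11.62 on all 8 arrays and the tissues overlapped.

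The Mcm2-7 ring is a hexamer of 6 related ATPases, yet its genes were not shifted together. Mcm2, Mcm3, Mcm5 and Mcm7 were higher and Mcm6 lower in wild-type fetal liver. On its brightest probe set Mcm4 did not pass the test in either genotype. Mcm2 was at 11.51 and 11.58 in wild-type marrow, 11.37 and 11.49 in knockout marrow, 12.34 and 12.36 in wild-type fetal liver and 12.49 and 12.32 in knockout fetal liver. It was 1.74-fold higher in wild-type and 1.96-fold higher in knockout fetal liver (differences 0.80 ± 0.10 and 0.97 ± 0.10, adjusted p = 0.000101 and 3.30e-05, limma). Mcm6 went the other way, at 12.07 and 12.11 in wild-type marrow, 12.18 and 12.15 in knockout marrow, 11.56 and 11.72 in wild-type fetal liver and 11.89 and 11.91 in knockout fetal liver. Its difference was -0.45 ± 0.09 in wild-type and -0.26 ± 0.09 in knockout (adjusted p = 0.0022 and 0.0312, limma). The knockout call was lost under 9 of the alternatives, and the second brightest probe set gave 0.05 in knockout arrays. Mcm3 differed by 0.68 ± 0.10 in wild-type arrays, Mcm5 by 0.35 ± 0.08 and Mcm7 by 0.28 ± 0.09.

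The factors that activate the ring also split. Cdc45, which with GINS clamps the ring into its active form, was at 8.68 and 8.81 in wild-type marrow, 8.83 and 8.82 in knockout marrow, 7.95 and 8.20 in wild-type fetal liver and 8.42 and 8.18 in knockout fetal liver. All 4 fetal liver arrays lay below all 4 marrow arrays, and the gene was 1.59-fold lower in wild-type fetal liver (-0.67 ± 0.12, adjusted p = 0.0011, limma). The second brightest probe set of Cdc45 gave -0.19 in wild-type and -0.22 in knockout, neither called (adjusted p = 0.152 and 0.104, limma). Mcm10, a scaffold needed for helicase activation, was at 8.98 and 8.99 in wild-type marrow and 9.46 and 9.55 in wild-type fetal liver, higher by 0.52 ± 0.09, and by 0.66 ± 0.09 between the knockout groups. Gins2 was at 9.04 and 8.96 in wild-type marrow and at 9.82 on both wild-type fetal liver arrays, a difference of 0.82 ± 0.14 (adjusted p = 0.000947, limma). Its knockout fetal liver arrays stood at 9.09 and 9.56, and the knockout difference missed the threshold (adjusted p = 0.0572, limma). Of the other GINS subunits, Gins1 was higher in both genotypes, by 0.45 and 0.35, and Gins3 and Gins4 were called lower in knockout arrays alone, at -0.27 ± 0.09 and -0.38 ± 0.09. Cdc7 was within 9.40 to 9.74 on all arrays and passed in neither genotype on its brightest probe set.

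Of the polymerase genes, those of accessory subunits held the largest values. Pold2, the small subunit that ties the catalytic chain of polymerase delta to the rest of the enzyme, was at 8.77 and 8.66 in wild-type marrow, 8.93 and 8.83 in knockout marrow, 9.95 and 9.92 in wild-type fetal liver and 9.58 and 9.59 in knockout fetal liver. It was 2.32-fold higher in wild-type fetal liver (1.22 ± 0.09, adjusted p = 4.00e-06, limma) and 1.63-fold higher in knockout fetal liver. Pold1, the catalytic subunit of the same enzyme, lay between 10.68 and 10.90 on all arrays and passed in neither genotype. Pold3 was called between the knockout groups alone, at 0.50 ± 0.11 (adjusted p = 0.0036, limma). Pole and Pole2 of polymerase epsilon passed in neither on their brightest probe sets.

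In the primase complex, Pola2 was higher by 0.59 ± 0.10 and Prim2 by 0.40 ± 0.10 in wild-type fetal liver, and both were called in knockout arrays too, at 0.41 and 0.41. Prim1, the catalytic primase subunit, was called in wild-type arrays alone (0.35 ± 0.11, adjusted p = 0.0208, limma). Pola1, the catalytic chain of polymerase alpha, was not called in either genotype; its 2 knockout marrow arrays, at 9.75 and 10.27, differed by more than its tissue means did. The knockout call of Pola2 was lost without knockout marrow replicate 1. The direction of Pola2 and Prim1 depends on the probe set, as described further on. The rise of Prim2 was called on its brightest probe set alone. Its next brightest gave -0.09 ± 0.09 in wild-type and -0.09 ± 0.09 in knockout arrays, neither called (adjusted p = 0.422 and 0.395, limma). Its dimmest gave -0.04 ± 0.19 in wild-type and 0.20 ± 0.19 in knockout arrays, neither called.

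Of the clamp and its loader, 2 of 6 genes were lower in wild-type fetal liver and 4 of 6 in knockout fetal liver. The 4 include Rfc4, whose direction depends on the probe set. Over all genes 26.8% were lower in wild-type and 27.1% in knockout fetal liver. Pcna, the sliding clamp, was at 13.89 and 13.95 in wild-type marrow, 13.94 and 13.95 in knockout marrow, 13.35 and 13.43 in wild-type fetal liver and 13.61 and 13.43 in knockout fetal liver. It was lower in fetal liver in both genotypes, at -0.53 ± 0.10 and -0.43 ± 0.10 (adjusted p = 0.0011 and 0.0040, limma). On its brightest probe set Rfc3 was lower in both, at -0.36 ± 0.09 and -0.44 ± 0.09. The second probe set of Rfc3 gave -0.28 ± 0.10 in wild-type arrays (adjusted p = 0.0416, limma). In knockout arrays it gave -0.22 ± 0.10 and was not called (adjusted p = 0.0928, limma). Rfc5, another small loader subunit, was higher in both genotypes, at 0.43 ± 0.09 and 0.24 ± 0.09. The knockout call of Rfc5 (adjusted p = 0.0441, limma) was lost under 11 of the alternatives. The wild-type call of Rfc3 was lost without replicate 1 of wild-type marrow or of wild-type fetal liver. Rfc1, the large subunit, lay between 9.51 and 9.70 on all arrays and passed in neither genotype on its brightest probe set.

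On their brightest probe sets all 3 genes of replication protein A were higher in wild-type fetal liver, as were 39.2% of all genes. The direction of Rpa2 depends on the probe set. Rpa2, the middle subunit, was at 9.97 and 9.94 in wild-type marrow, 10.09 and 10.01 in knockout marrow, 10.85 and 10.92 in wild-type fetal liver and 10.86 and 10.78 in knockout fetal liver, 1.90-fold higher in wild-type (0.93 ± 0.09, adjusted p = 1.95e-05, limma) and 1.71-fold higher in knockout. Its second probe set gave -0.07 in wild-type and -0.49 in knockout, and the mean of its probe sets gave 0.14 in knockout, which was not called (adjusted p = 0.171, limma). Rpa1, the large DNA-binding subunit, differed by 0.39 ± 0.09 in wild-type arrays, and Rpa3, the smallest, by 0.34 ± 0.12 (adjusted p = 0.0381, limma). The call of Rpa3 was lost with no filter and without any 1 of the 4 marrow or 2 wild-type fetal liver arrays (adjusted p up to 0.194, limma), and it did not pass between the knockout groups. Of the finishing enzymes, Fen1, the flap nuclease, passed in neither genotype. It gave 0.10 ± 0.12 in wild-type and 0.29 ± 0.12 in knockout arrays (adjusted p = 0.455 and 0.0525, limma). Lig1, the ligase, was called in knockout arrays alone at 0.31 ± 0.10 (adjusted p = 0.0301, limma). That call was lost without any 1 of the 4 knockout arrays (adjusted p = 0.0521 to 0.110, limma).

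Different probe sets of a gene did not always give the same direction. Of the 30 genes with at least 2 tested probe sets, 18 had one sign throughout in the wild-type tissue comparison and 20 in the knockout one. Each probe set fitted by itself, 39 of 87 were higher and 13 lower in wild-type fetal liver, and 31 higher and 17 lower in knockout fetal liver. The share over all probe sets was not counted. Of all genes, on their brightest probe sets, 39.2% were higher and 26.8% lower in wild-type and 36.6% and 27.1% in knockout fetal liver. Pola2 and Prim1 had probe sets called in both directions between the wild-type groups, and Pola2, Rfc4 and Rpa2 between the knockout groups. The second probe set of Pola2, at a log2 level of 6.55 and 6.27 in wild-type marrow and 5.01 and 5.11 in wild-type fetal liver, gave -1.35 ± 0.13 where the brightest gave 0.59. The second probe set of Prim1 gave -0.29 ± 0.11 where the brightest gave 0.35. The second of Rfc4 gave 0.74 ± 0.12 in wild-type and 0.44 ± 0.12 in knockout, where the brightest gave -0.10 and -0.53. For Rpa2 the second gave -0.07 ± 0.13 in wild-type and -0.49 ± 0.13 in knockout. The direction of the tissue difference of these 4 genes is therefore unsettled on this array, and which transcripts each probe set reads was not tested. Other genes, Prim2 among them, had a dimmer probe set of the opposite sign that was not called. Some genes called in neither genotype on the brightest probe set had a dimmer one that was called. In wild-type arrays these were Orc4 (0.86, 0.57 and 0.99), Orc1 (-0.35), Pole2 (-0.60) and Rfc1 (-0.65). In knockout arrays they were Orc4 (0.36 and 0.61), Mcm4 (0.51), Pole2 (-0.58) and Cdc7 (-0.40).

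**Figure D3:**
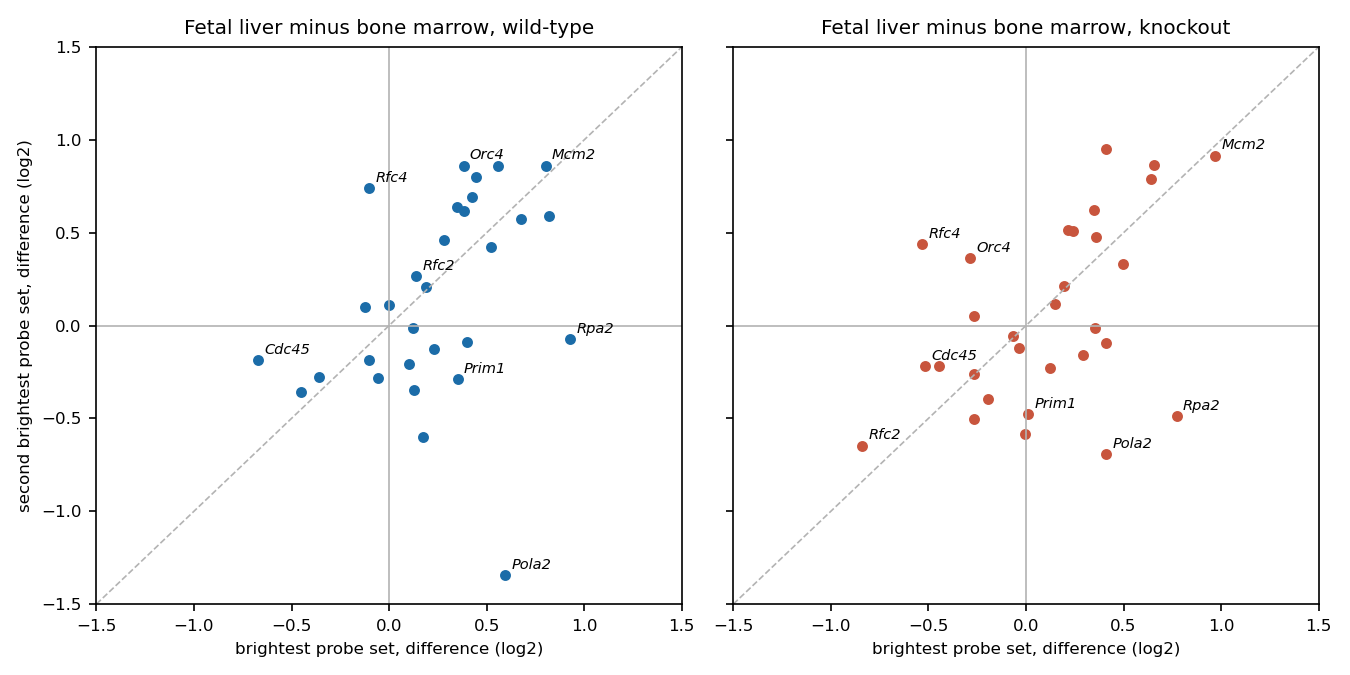
The difference between fetal liver and bone marrow given by the second brightest probe set of each gene (vertical axis, log2) against that given by the brightest (horizontal axis, log2). Genes off the diagonal include Pola2, at 0.59 on the brightest and -1.35 on the second probe set in wild-type arrays, and Rfc4, at -0.10 and 0.74.

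The second comparison asked what loss of Col18a1 did in adult marrow. The replication machinery there showed no called difference. Of the 42 genes 0 passed the test (limma; 1, Cdc7, at an unadjusted p under 0.05), against 0.411% of all genes. Differences ran from -0.15 ± 0.11 for Pold3 to 0.20 ± 0.13 for Orc5, with a median of 0.05 against 0.01 over all genes. Of the 42 genes 32 were above 0, and of all 13136 genes 7140. Each of the 42 intervals (95%, unadjusted) lay within 1.5-fold in either direction. Cdc7, the kinase that triggers firing, was at 9.54 on both wild-type and 9.74 on both knockout arrays (0.20 ± 0.09, adjusted p = 0.738, limma). Pole gave 0.19 ± 0.09, Mcm2 -0.11 ± 0.10 and Rfc3 -0.09 ± 0.09. The arrays of the 2 genotypes did not overlap for 22 of the 42 genes (52.4%), 19 of them higher and 3 lower in knockout. Of all 13136 genes 43.1% did not overlap, 3129 of them higher and 2538 lower. In the same arrays 7 of 8 megakaryocyte genes were lower in knockout marrow, where their summed intensity was 7024 to 7406 against 14134 to 16899; its part in these values was not tested.

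The next comparison asked the same of fetal liver. There 1 replication gene differed: Rfc2, the gene of a small subunit of the clamp loader, fell in knockout fetal liver. It was at 9.70 and 9.85 in wild-type and at 8.98 and 8.97 in knockout fetal liver, 1.74-fold lower (-0.80 ± 0.09, 95% interval -1.001 to -0.59, adjusted p = 0.0171, limma). In marrow it was at 9.63 and 9.64 in wild-type and 9.83 and 9.81 in knockout, so the knockout fetal liver arrays were the lowest of the 8 and the other 6 lay within 9.63 to 9.85. Over all genes 0.320% were called in fetal liver and 0.198% were called lower, so 1 of 42 is a count from which no shift of the machinery is read. The median difference of the 42 genes was -0.05, against -0.03 over all genes, with 18 above and 24 below 0. Of all 13136 genes 7245 were below 0. At an unadjusted p under 0.05 stood 11 of the 42 (26.2%), near the share of all genes there (2890 of 13136).

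The low signal of Rfc2 did not rest on 1 probe set. Its second probe set was at 8.70 and 8.99 in wild-type and 8.18 and 7.86 in knockout fetal liver, and the dimmest at 7.71 and 8.04 against 7.26 and 6.75. Fitted over all probe sets, the 3 gave -0.80 ± 0.09, -0.83 ± 0.14 and -0.87 ± 0.18, with adjusted p = 0.0304, 0.0592 and 0.0809 (limma), so that 1 of the 3 passed. The dimmer pair are of a kind (x_at) that can also bind related transcripts. Against knockout marrow, where sex-linked genes were at like levels, Rfc2 was lower in knockout fetal liver by 1.79-fold (-0.84 ± 0.09, adjusted p = 4.40e-05, limma). Between the wild-type groups, which differ in those genes, it gave 0.14 ± 0.09 and was not called. Both of these comparisons also differ in tissue and age, and genotype and sex-linked expression cannot be told apart in fetal liver. Rfc2 lies on chromosome 5. Of the 5 array genes on either side of it 9 were tested, and their fetal liver differences ran from -0.36 (Lat2) to 0.23 (Ncf1) with adjusted p of 0.266 to 0.931 (limma). The cause of the low Rfc2 signal was not tested.

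The call of Rfc2 is close to the limit of 2 arrays a group. It was lost without either wild-type marrow array or either knockout marrow array, without wild-type fetal liver replicate 2 (adjusted p = 0.0855, limma) and without knockout fetal liver replicate 1 (adjusted p = 0.0757, limma). With the replicate number as a block it missed the threshold (adjusted p = 0.0548, limma), and over the alternatives the adjusted p ran from 0.0012 to 0.218 while the difference stayed between -0.87 and -0.73.

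**Figure D4:**
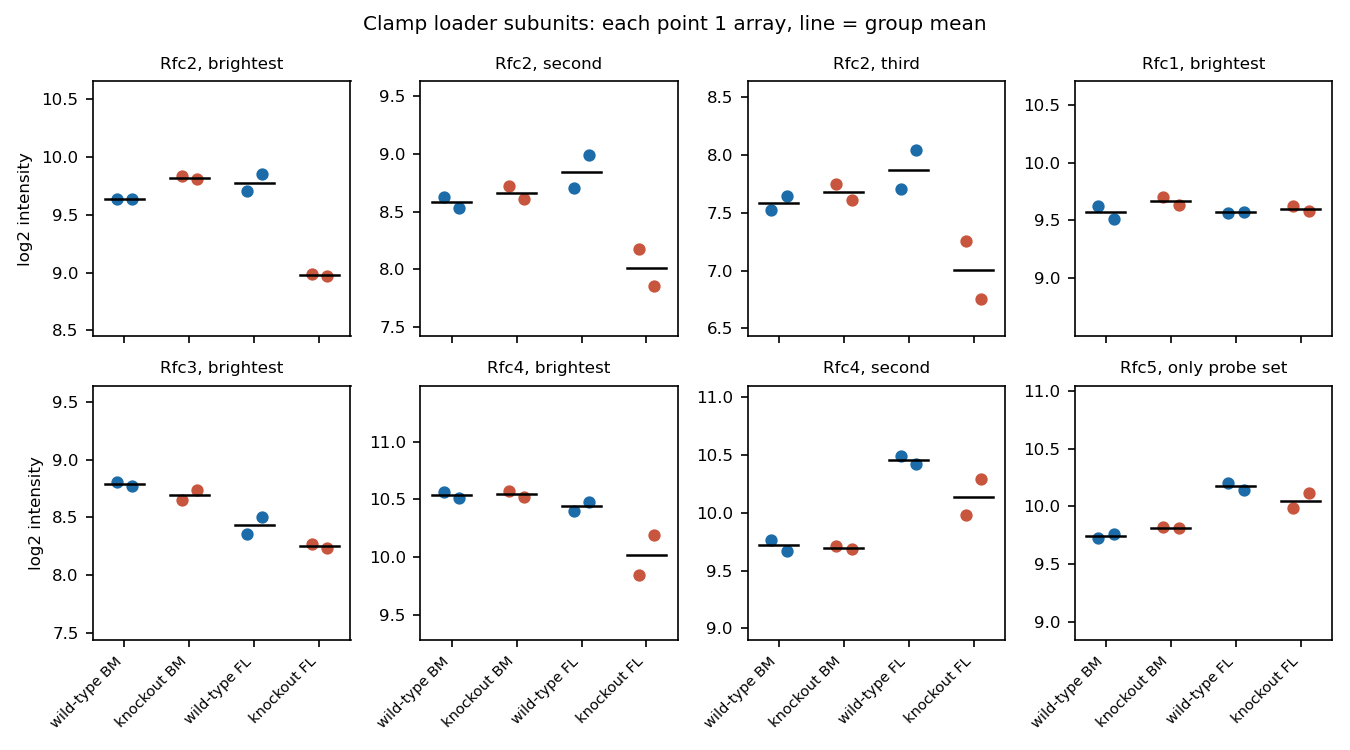
Log2 levels (vertical axes, of equal span and each centred on its probe set) of the 5 clamp loader genes on the 8 arrays, 1 point an array and a line at each group mean, with the dimmer probe sets of Rfc2 and the second of Rfc4 in panels of their own. On the brightest probe set Rfc2 is at 8.98 and 8.97 in knockout fetal liver and at 9.63 to 9.85 on the other arrays, while Rfc1 lies between 9.51 and 9.70 on all 8.

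The partners of Rfc2 in the loader did not pass the test in fetal liver. Rfc4 was at 10.40 and 10.48 in wild-type and 9.84 and 10.19 in knockout fetal liver (-0.42 ± 0.12, adjusted p = 0.117, limma), Rfc3 gave -0.18 ± 0.09, Rfc5 -0.12 ± 0.09 and Rfc1 0.03 ± 0.09. The largest difference after Rfc2 was that of Orc4, an origin recognition subunit, at 8.93 and 8.80 in wild-type and 7.92 and 8.48 in knockout fetal liver (-0.67 ± 0.17, adjusted p = 0.102, limma). All 4 probe sets of Orc4 gave values between -0.67 and -0.53, and none of them passed the test. Gins2 gave -0.49 ± 0.14, Rpa3 -0.39 ± 0.12, Prim1 -0.34 ± 0.11 and Pold2 -0.34 ± 0.09. On the other side Orc5 gave 0.32 ± 0.13, Fen1 0.27 ± 0.12 and Mcm6 0.26 ± 0.09.

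In Orc4, Gins2, Rfc4, Rpa3 and Prim1 knockout fetal liver replicate 1 was the lower array of its group, and in Fen1 the higher; over the 42 genes it was the lower for 19. The gap between the 2 knockout fetal liver arrays had a median of 0.10 over the 42 genes and reached 0.56 for Orc4, against medians of 0.05 to 0.09 in the other groups. Without knockout fetal liver replicate 2 the count of called genes was 7 of 42 (6 lower and 1 higher), in a fit that called 7.69% of all genes (1010, against 42 with all arrays), with Orc4 at -0.95 (adjusted p = 0.0163, limma). Without replicate 1 it was 0 (limma), with 0.0381% of all genes called. The intervals of 35 of the 42 genes lay within 1.5-fold in either direction; those of Orc4, Orc5, Gins2, Prim1, Rfc2, Rfc4 and Rpa3 reached past it. Beside these differences, 10 of the 11 erythroid marker genes tested were above 0 and none was called; the summed intensity of the 12 on the array was 52421 to 54845 in wild-type and 59518 to 61197 in knockout fetal liver. The sum of 15 mitotic genes was 26434 to 29406 against 30852 to 32046. The part of these in the replication genes was not tested.

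**Figure D5:**
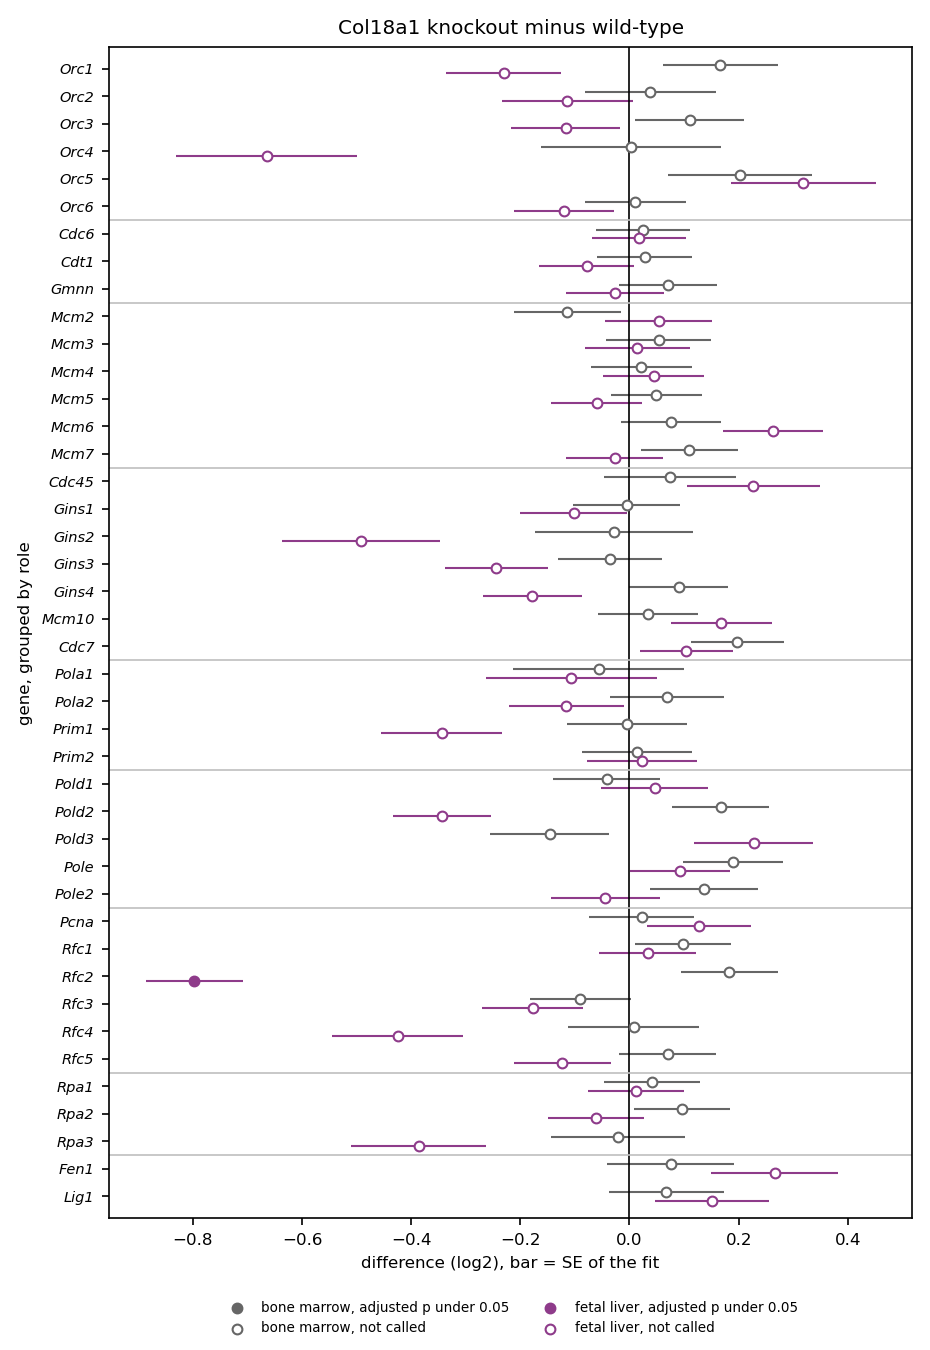
Differences between knockout and wild-type on the log2 scale for each of the 42 genes, in bone marrow and in fetal liver, with bars of 1 standard error of the fit. Rfc2 in fetal liver, at -0.80, is the single called value; Orc4, at -0.67, has a wider bar and was not called.

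The last genotype comparison tested whether the difference between knockout and wild-type arrays differed between the tissues. All 4 sex-linked genes tested were called in it, so genotype and sex-linked expression cannot be told apart in its fetal liver part. Rfc2 was the 1 gene of 42 to pass, with its genotype difference lower in fetal liver than in marrow by -0.98 ± 0.13 (95% interval -1.27 to -0.69, adjusted p = 0.0493, limma). Over all genes 0.0914% were called, and 0.0228% were called lower. The marrow part of this value was the difference of 0.18 ± 0.09, which was not called by itself. The call lies at the threshold and held in 1 of the 8 fits that left out an array, the one without knockout fetal liver replicate 2. Next in size were Orc4 at -0.67 ± 0.23, Pold2 at -0.51 ± 0.13 and, on the other side, Pold3 at 0.37 ± 0.15, Fen1 at 0.19 ± 0.16 and Mcm6 at 0.19 ± 0.13, none of which passed. The median over the 42 genes was -0.10, against -0.04 over all genes. Of the 42 genes 30 were below 0, and of all 13136 genes 7373.

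Genes that work beside the core machinery were counted from 4 further lists. None of the 34 other replication factors, 13 nucleotide supply genes, 29 regulators of the passage from G1 to S and 15 mitotic genes tested was called between genotypes in marrow or in fetal liver (limma; 2, 1, 1 and 0 at an unadjusted p under 0.05 in marrow, and 7, 4, 7 and 2 in fetal liver). Of all 13136 genes, 886 in marrow and 2890 in fetal liver stood below that unadjusted p. Between the tissues the genes of these lists differed in both directions. Between the wild-type groups 70.6% of other replication factors, 84.6% of nucleotide supply genes and 65.5% of G1 to S regulators were called. Over all genes that share was 65.9% (39.2% higher and 26.8% lower). In wild-type fetal liver 16 other replication factors were higher and 8 lower, with Poldip2, a polymerase delta partner, at 1.34 ± 0.10 and Pold4, its smallest subunit, at -1.75 ± 0.14. Of the nucleotide supply genes 8 were higher and 3 lower; Cad, which begins pyrimidine synthesis, gave 1.24 ± 0.10, and Samhd1, which breaks down deoxynucleotides, gave -2.26 ± 0.13. The G1 to S list had 9 higher and 10 lower, led by the inhibitor Cdkn1c at 5.84 ± 0.11 and Ccnd1 (cyclin D1) at 2.28 ± 0.09 and, in the other direction, Cdk6 at -1.37 ± 0.09. Of the mitotic genes 1 was higher and 5 lower, so 6 of 15 (40.0%) were called against 65.9% of all genes: Plk1 gave 0.48 ± 0.11, Ccnb2 -0.85 ± 0.10 and Cdk1 -0.51 ± 0.09.

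In knockout fetal liver against knockout marrow 10 of the 34 other replication factors were higher and 9 lower, and 6 and 4 of the 13 nucleotide supply genes. Of the 29 G1 to S regulators 10 were higher and 10 lower, and of the 15 mitotic genes 1 and 8. The shares called were 55.9%, 76.9%, 69.0% and 60.0%, against 63.8% of all genes (36.6% higher and 27.1% lower). The medians of the 4 lists were 0.20, 0.50, -0.09 and -0.11 in wild-type arrays and 0.15, 0.26, -0.08 and -0.25 in knockout arrays, beside 0.23 and 0.13 for the 42 core genes. Mcm2 and Pold2 were higher in fetal liver in the same arrays in which Ccnb2 was lower; the makeup of the suspensions differed as well, and its part was not tested.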

How the data were processed

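Log2 levels were taken from the deposited table of array intensities (linear scale), which the authors made by RMA per the submitters' processing notes; its version and summary settings are not given in the sources used here. RMA equalises the distribution over arrays, so shifts of all genes together cannot be seen. Of 45101 probe sets, 34958 named 1 gene in the platform annotation (34754 matched RefSeq by Entrez identifier), 932 named several and 9211 none. Those naming several genes or none were left out. Each gene took its brightest probe set. Genes at log2 of at least 5 on at least 2 arrays were tested (13136) with limma 3.58.1 in R 4.3.3, with 1 mean for each of the 4 groups over all 8 arrays (4 residual and 4.48 prior degrees of freedom), two-sided, with p-values adjusted by Benjamini-Hochberg over all 13136 genes and a threshold of 0.05. Contrasts were knockout against wild-type in each tissue, their difference, and fetal liver against bone marrow in each genotype. A replicate is a pool of 2 littermates, so p-values measure the spread between such pools, and 2 arrays a group limit the precision. The code was tested on simulated data.

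The 42 genes, the 4 further pathway lists and the marker lists (erythroid, neutrophil, B lineage, monocyte and macrophage, hepatocyte, megakaryocyte, T and NK cell, sex-linked) were chosen with earlier results of these data known. Genes were named with values where called in a contrast (the 5 largest each way where over 10 were), where among the 3 largest differences each way, or where at the ends of their role in the tissue contrasts; of the further lists, the 2 largest each way between tissues. Some other members are named to account for the whole list. Same-numbered replicates did not deviate together (r = -0.12 to -0.0008), so the numbers were not taken to pair samples. Alternatives changed the filter, the choice of probe set, the scaling, the variance model, the arrays fitted and the replicate block, and left out each array in turn.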

Additional observations from a re-analysis of the deposited data

Results flagged for a closer look

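Rfc2 was the 1 replication gene whose genotype difference was tested and called as unlike in the tissues, at -0.98 ± 0.13 (adjusted p = 0.0493, limma). Knockout minus wild-type was -0.80 ± 0.09 in fetal liver and 0.18 ± 0.09 in marrow. In fetal liver the genotypes also differed in sex-linked genes, so genotype and sex-linked expression cannot be told apart in this result. Groups of 2 arrays allow no test for an outlying array.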

How the results depend on the processing

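Each group holds 2 arrays, and single arrays decide the genotype calls. The count of called genes in fetal liver between genotypes (1) was 3 with a trended, robust variance and 0 with array weights, with the replicate block or with only those groups' arrays; leaving out 1 array gave 0 to 7. For the interaction (1) it was 0 with no filter, with the mean of all probe sets of a gene, with array weights or with the replicate block, and 0 to 2 with 1 array left out. For Rfc2 the replicate block gave adjusted p = 0.0548 in fetal liver and 0.0893 for the interaction (limma). The tissue counts (25 and 25) were 19 to 26 in wild-type and 16 to 24 in knockout arrays with 1 array left out, 16 without knockout marrow replicate 1.

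Medians moved past their spread as follows. With the mean of all probe sets they were 0.0236 in marrow between genotypes, 0.14 between wild-type and 0.0202 between knockout tissues. With arrays centred on their medians they were -0.0913 in fetal liver, -0.13 for the interaction and 0.27 between wild-type tissues. Repeated quantile normalization gave -0.0746 for the interaction. With 1 array left out the interaction median was -0.12 to -0.0889 and the wild-type tissue median 0.22 to 0.28.

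Differences of named genes that turned were nearly all due to the probe set. With the mean of all probe sets they were, in wild-type, Orc1 -0.11, Cdt1 -0.0530, Pola2 -0.42 and Fen1 -0.0523, and in knockout Orc4 0.18, Cdt1 -0.11 and Pola2 -0.18. With the second brightest probe set, an alternative chosen after seeing the data, they were, in wild-type, Orc1 -0.35, Cdt1 -0.13, Pola2 -1.35, Pold1 0.10, Rpa2 -0.0729 and Fen1 -0.21, and in knockout Orc4 0.36, Cdt1 -0.23, Mcm6 0.0521, Pola2 -0.69, Rfc4 0.44, Rpa2 -0.49 and Fen1 -0.16. With 1 array left out the uncalled knockout tissue differences of Pola1 ran from -0.41 to 0.11 and of Rpa3 from -0.19 to 0.14. The cause was not tested. With 1 array left out, most values of named genes kept direction and side of the threshold. Others lost or gained the call, and 3 changed sign.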
